A study of Mus musculus with 8 samples.

Results

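The genes described here are 10 macrophage genes of the mouse heart: Lyve1, Timd4, Folr2, Cd163, Mrc1, F13a1 and Cbr2, which mark macrophages resident in the tissue, and Plac8, Trem2 and Gpnmb, which mark monocytes and the macrophages that develop from them. They were chosen by symbol, and each matched 1 of the 23045 genes measured. Total RNA of hearts in 4 WT and 4 Mettl3 KO libraries was compared. All 8 hearts carried Mettl3 lox/lox alleles, and the study's methods give tamoxifen injections on 7 days (100 µg per g body weight) to mice aged 10 to 16 weeks for both genotypes. Only the Mettl3 KO hearts also carried the alphaMHC-MerCreMer transgene, which drives recombination in cardiomyocytes. Macrophages are therefore not the cells targeted, and an effect of the Cre transgene cannot be told apart from that of Mettl3 loss. Values are normalized read counts of the deposited table.

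Resident cardiac macrophages lie along vessels and between myocytes, and many maintain themselves by division with little input from the blood. They are known for taking up dying cells, cell debris and haemoglobin. Monocytes carrying the chemokine receptor CCR2 enter the heart from the blood, and some become macrophages that handle lipid and express Trem2 and Gpnmb. Macrophage genes are widely controlled by the transcription factor PU.1, and Gpnmb by MITF and its relatives TFEB and TFE3.

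The libraries were shallow for genes of a rare cell type. The normalized counts summed to 2839589 to 2916986 per library, and the read numbers recovered from their spacing summed to 2631932 to 3061420. Scaled to the library total as CPM, 3 reads corresponded to 0.98 to 1.14. The targeted gene Mettl3 had 105, 133, 118 and 107 normalized counts in WT 1 to 4 and 74, 68, 69 and 78 in Mettl3 KO 1 to 4, a fall of the log2 value by 0.67 (limma adjusted p = 0.000184). Genes were called changed at an adjusted p under 0.05 in a limma fit on log2(normalized count + 1) over 20313 genes. Nothing in the labels says that the libraries of a group came from separate litters or days, so the p-values measure the spread between these libraries.

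Of the 10 genes, Cd163 alone was called changed. It was lower in Mettl3 KO hearts, at 77.4% of the WT mean. Over all tested genes, 7.91% were called, 3.19% lower and 4.72% higher in Mettl3 KO, so 1 called gene of 10 was near the background. The same 1 gene had an unadjusted p under 0.05, against 20.6% of all genes. The values of Cd163 and Trem2 did not overlap between the genotypes, 2 of 10 against 11.5% of all genes. Without Plac8, which was too low for a fold, the median log2 fold change of the other 9 genes was -0.035, with 6 below 0 and 3 above, and that of all tested genes was -0.009. Because bulk tissue was sequenced, fewer macrophages and less RNA per macrophage cannot be told apart for any of these genes.

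**Figure D1:**
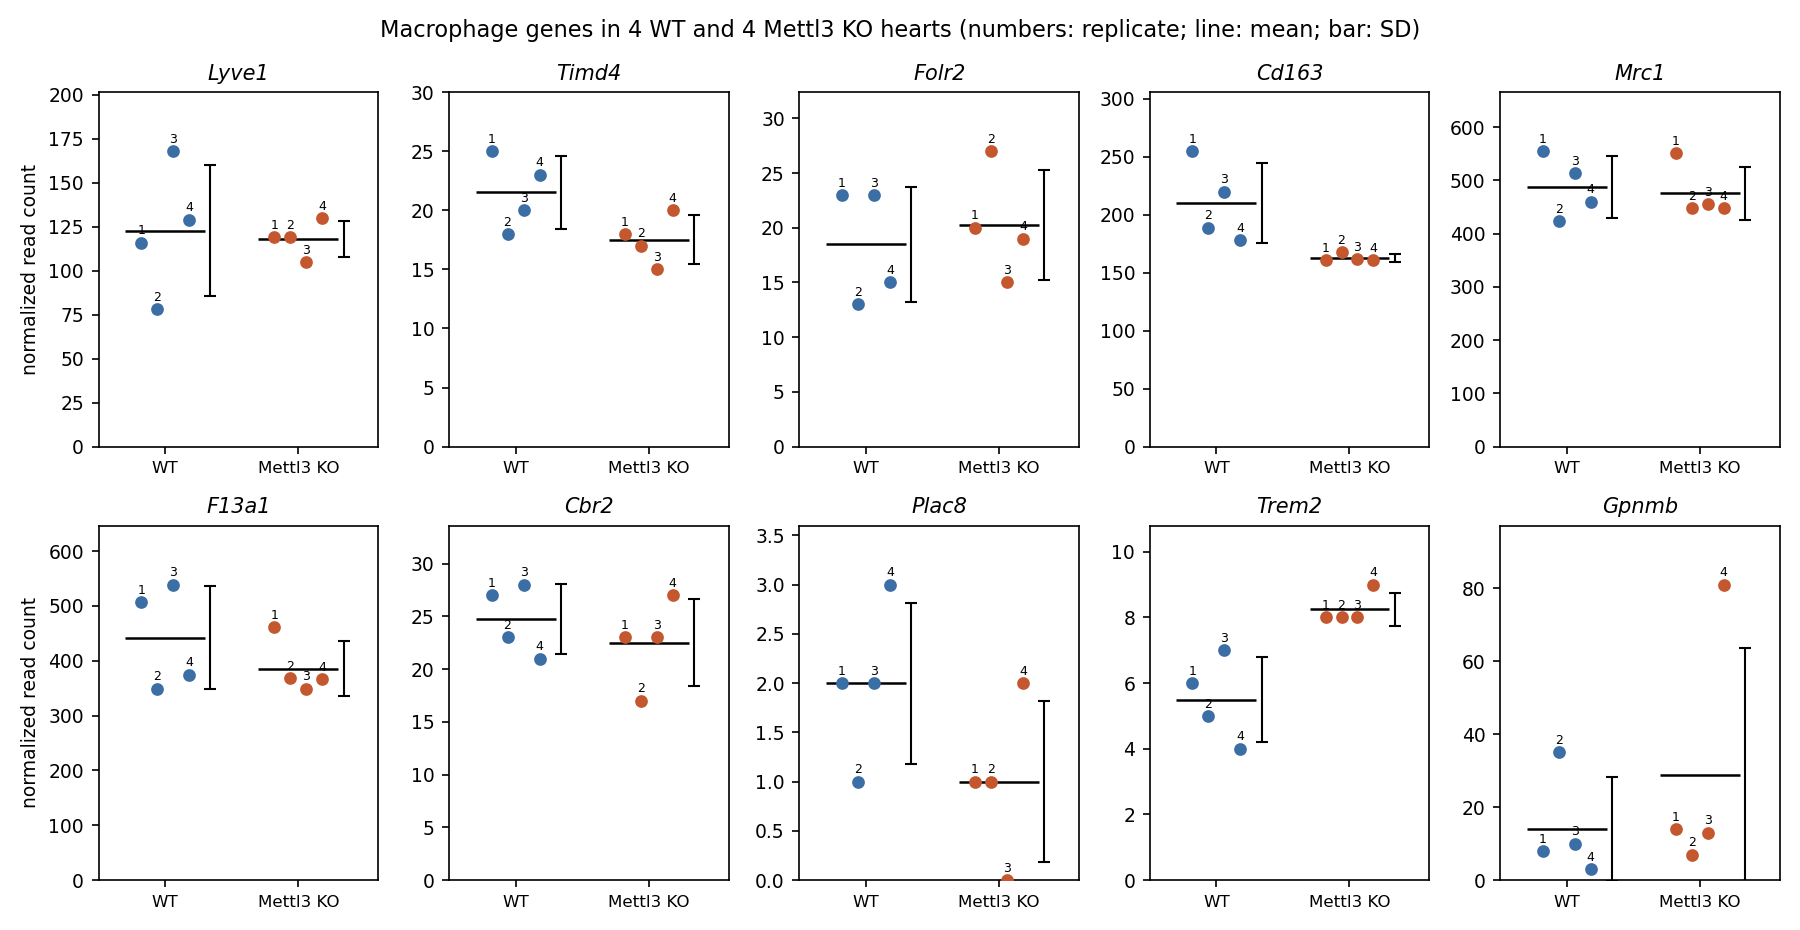
Normalized read counts (vertical axes, each from 0) of the 10 genes in WT (blue) and Mettl3 KO (orange) hearts, with 1 point per library numbered by replicate, the mean as a line and the SD as a bar that is clipped at 0. The Cd163 values of the 4 Mettl3 KO libraries sit between 161 and 168, below the lowest WT value of 178, and Gpnmb stands out in WT 2 at 35 and in Mettl3 KO 4 at 81.

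The sequence upstream of the start site is shown for 3 genes the results turn on: Cd163, the called gene, Mrc1, whose level differed little between the genotypes, and Trem2, the gene of recruited macrophages whose values did not overlap. Each is the 250 bases before the start site of the RefSeq annotation, on the plus strand of GRCm38.p6, an earlier build than the mm39 of the counts. Capitals mark matches on either strand to the PU.1 core letters GAGGAAG or to TCACATG, an E-box bound by MITF and TFE proteins.
Cd163 (chr6:124304401-124304650): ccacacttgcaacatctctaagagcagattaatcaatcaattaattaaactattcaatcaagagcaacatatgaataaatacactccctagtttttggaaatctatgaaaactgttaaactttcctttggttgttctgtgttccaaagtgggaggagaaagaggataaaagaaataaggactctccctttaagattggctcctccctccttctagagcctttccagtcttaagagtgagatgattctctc
Mrc1 (chr2:14229164-14229413): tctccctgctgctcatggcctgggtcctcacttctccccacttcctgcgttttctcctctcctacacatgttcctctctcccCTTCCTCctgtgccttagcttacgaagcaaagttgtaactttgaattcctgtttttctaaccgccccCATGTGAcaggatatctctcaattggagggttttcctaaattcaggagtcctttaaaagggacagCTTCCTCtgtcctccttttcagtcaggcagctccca
Trem2 (chr17:48346151-48346400): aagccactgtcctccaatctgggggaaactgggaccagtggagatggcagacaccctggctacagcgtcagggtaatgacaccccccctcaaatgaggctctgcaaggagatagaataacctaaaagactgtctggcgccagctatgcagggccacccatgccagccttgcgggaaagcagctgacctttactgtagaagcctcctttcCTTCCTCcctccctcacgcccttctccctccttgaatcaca
The Mrc1 window holds the PU.1 core letters at -168 and -36 from the start site and the E-box letters at -101, and the Trem2 window holds the PU.1 letters at -41. None of the motifs searched is in the Cd163 window. With the 50 bases after the start site included, windows were found for 9 of the 10 genes, and GAGGAAG was in 4 of them (Mrc1, F13a1, Cbr2 and Trem2), against 15.4% of all 27025 genes with a window. The letters TGCTGAC, part of the site bound by MAF factors, were in the windows of Timd4 and Cbr2, against 5.28% of all genes. TCACATG was in that of Mrc1 alone, against 4.5%, and TCACGTG, the other MITF and TFE E-box, was in 0 of the 9 and in those of 4.29% of all genes. The motifs do not overlap each other, and a match is a description of the letters only.

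Cd163 encodes the scavenger receptor that takes up haemoglobin bound to haptoglobin. The gene (ENSMUSG00000008845) lies at chr6:124281615-124307486 on the plus strand of mm39. It had 255, 189, 220 and 178 normalized counts in WT 1 to 4 and 161, 168, 162 and 161 in Mettl3 KO 1 to 4. Every Mettl3 KO library was below every WT library, and the Mettl3 KO values were within 7 counts of each other while the WT values were spread over 77. The mean was 210.5 ± 34.6 in WT and 163 ± 3.37 in Mettl3 KO (SD, n = 4 each). The Mettl3 KO spread was smaller than counting error alone gives at this level, so it is not read further. The gap between 168 and 178, the nearest values of the genotypes, was within counting error too. On the log2 scale Mettl3 KO differed from WT by -0.35 ± 0.091 (SE), with a 95% interval of -0.54 to -0.17 (limma adjusted p = 0.0168). Depth was not scarce for this gene, with 868 reads over the WT and 641 over the Mettl3 KO libraries, or 73.8 and 56.6 CPM.

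The call of Cd163 rested on single libraries. Without WT 1, the highest library, the log2 fold change was -0.26 (limma adjusted p = 0.0862). It was -0.33 (adjusted p = 0.0503) without WT 3, -0.35 (adjusted p = 0.0604) without Mettl3 KO 3 and -0.35 (adjusted p = 0.0567) without Mettl3 KO 4. It remained lower in Mettl3 KO in all 19 alternatives run, between -0.43 and -0.26, with adjusted p from 0.00722 to 0.0895, and was called in 14 of them.

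Of 10 further genes of haemoglobin and haem handling, 9 were tested with limma, of which 0 were called lower and 1 higher, with 2 at an unadjusted p under 0.05 and a median log2 fold change of -0.017. The gene called higher was Lrp1, the receptor of haemopexin-bound haem and of many other ligands, with a log2 fold change of 0.22 (limma adjusted p = 0.00913). That call was lost without WT 2 (0.19, adjusted p = 0.0542), WT 4 (0.17, adjusted p = 0.0551) or Mettl3 KO 3 (0.21, adjusted p = 0.0547). The haem handling list had 0 calls without WT 4 or Mettl3 KO 3 and 2 calls without Mettl3 KO 1. Slc40a1, the iron exporter ferroportin, had 164, 112, 157 and 147 normalized counts in the WT libraries and 134, 109, 113 and 113 in the Mettl3 KO libraries (log2 fold change -0.29, adjusted p = 0.10). Hmox1, the enzyme that opens the haem ring, had 34, 31, 32 and 20 in the WT libraries and 37, 33, 29 and 27 in the Mettl3 KO libraries (0.12, adjusted p = 0.801). Both genes overlapped between the genotypes. The biliverdin reductases, which act after Hmox1, were at 81.1% of the WT mean for Blvra (-0.31, limma adjusted p = 0.25) and 79.5% for Blvrb (-0.31, adjusted p = 0.443), and Slc40a1 was at 80.9%. These fitted differences were near that of Cd163 and did not pass the test, and of the 3 only Blvrb did not overlap between the genotypes. Other tested genes of the list were not near it, with Ftl1 at -0.151, Fth1 at -0.017 and Slc48a1 at 0.018. Hp did not exceed 3 counts in any library.

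Mrc1 encodes the mannose receptor CD206, an endocytic lectin, and F13a1 the A chain of coagulation factor XIII, which cross-links fibrin. Per kilobase of the principal transcript they had the highest levels of the 10 genes: 112 normalized counts per kilobase in WT for F13a1 and 90.8 for Mrc1, followed by Cd163 (47.8) and Lyve1 (42.4). In WT the order went on with Cbr2 (22.3), Folr2 (15.4), Timd4 (9.89), Trem2 (5.06), Gpnmb (3.78) and Plac8 (1.63). Neighbours in this order overlapped between WT libraries except for Mrc1 above Cd163, Lyve1 above Cbr2 and Timd4 above Trem2. Mrc1 (chr2:14234203-14336868, plus strand) had 555, 423, 514 and 460 normalized counts in the WT libraries and 551, 448, 455 and 448 in the Mettl3 KO libraries. The highest libraries were 1 of each genotype, and the ranges overlapped. The log2 fold change was -0.035, with a 95% interval of -0.19 to 0.12, or 0.875 to 1.09 times the WT level (limma adjusted p = 0.863).

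F13a1 (chr13:37051152-37234220, minus strand) had 507, 349, 539 and 375 normalized counts in the WT libraries and 461, 368, 349 and 366 in the Mettl3 KO libraries. WT 1 and WT 3 were the highest, and the other WT libraries lay among the Mettl3 KO ones. On the log2 scale the difference was -0.18, with a 95% interval of -0.40 to 0.041 (limma adjusted p = 0.371). It ran from -0.077 without WT 3 to -0.286 without WT 2, with no call in either case. F13a1 is also expressed by megakaryocytes and passed on to platelets. Of 6 platelet genes, 3 were tested, 0 were called by limma, with 0 at an unadjusted p under 0.05, and their summed counts were 11 to 20 in WT and 7 to 18 in Mettl3 KO.

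Lyve1 encodes a receptor for hyaluronan and is found on resident macrophages and on lymphatic endothelium. It (chr7:110449814-110462446, minus strand) had 116, 78, 168 and 129 normalized counts in the WT libraries and 119, 119, 105 and 130 in the Mettl3 KO libraries. The 4 Mettl3 KO values lay inside the WT range, and the coefficient of variation was 30.2% in WT and 8.66% in Mettl3 KO. The log2 fold change was -0.006, with a 95% interval of -0.31 to 0.30, or 0.805 to 1.23 times the WT level (limma adjusted p = 0.996). Its sign turned in 3 alternatives. Of 9 genes of lymphatic endothelium tested, 4 were called higher (Pdpn, Mmrn1, Fgl2 and Sema3d) and 0 lower, with a median of 0.43. The Pdpn call was lost without WT 2, 3 or 4 or Mettl3 KO 1, 2 or 4 (0.51 to 0.56, adjusted p from 0.0612 to 0.104). The summed counts of the list were 1612 to 1730 in WT and 1847 to 1899 in Mettl3 KO. Prox1 and Flt4 of this list were not called by limma (0.041, adjusted p = 0.649, and -0.008, adjusted p = 0.977). Prox1 gave the largest part of the summed counts. Its mean over the 8 libraries was 957.2, above that of Pecam1 of blood endothelium (802.2), with Flt4 at 169.2. The part of other cells in the Prox1 values was not tested. The part of lymphatic vessels in the Lyve1 values was not tested.

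Timd4, Folr2 and Cbr2 were the low genes of the resident set, at 69 to 102 reads per genotype. Timd4 encodes TIM-4, a receptor for phosphatidylserine on dying cells that marks long-lived resident macrophages. It (chr11:46701627-46735159, plus strand) had 25, 18, 20 and 23 normalized counts in the WT libraries and 18, 17, 15 and 20 in the Mettl3 KO libraries. The ranges overlapped at 18 to 20, and the log2 fold change was -0.28, with a 95% interval of -0.72 to 0.16 (limma adjusted p = 0.519). Its value was below 0 in all 19 alternatives, from -0.42 to -0.21, and the test was passed in none of them. Timd4 therefore could have fallen to 0.608 of the WT level or risen to 1.12 times it at this depth.

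Folr2 encodes the folate receptor beta. It (chr7:101489195-101506401, minus strand) had 23, 13, 23 and 15 normalized counts in the WT libraries and 20, 27, 15 and 19 in the Mettl3 KO libraries. Its highest value was in Mettl3 KO 2 and its lowest in WT 2. Its log2 fold change was 0.14, with a 95% interval of -0.37 to 0.64 (limma adjusted p = 0.831). Cbr2 encodes carbonyl reductase 2, an enzyme that also marks airway epithelium. It (chr11:120620315-120622940, minus strand) had 27, 23, 28 and 21 normalized counts in the WT libraries and 23, 17, 23 and 27 in the Mettl3 KO libraries. The genotypes overlapped over most of their range (log2 fold change -0.14, adjusted p = 0.774). The value was -0.018 without Mettl3 KO 2 and -0.231 without Mettl3 KO 4, with no call in either case.

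**Figure D2:**
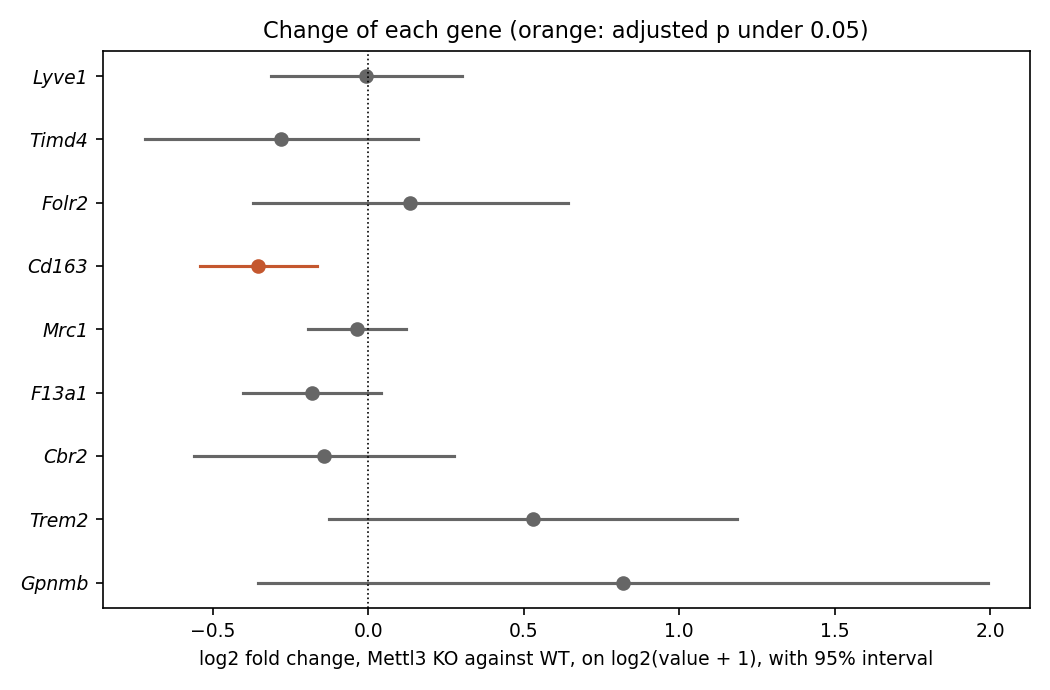
Log2 fold change of Mettl3 KO against WT on log2(normalized count + 1) (horizontal axis) of 9 of the 10 genes, points with their 95% interval. Plac8 is not drawn. The interval of Cd163 (-0.54 to -0.17, orange) lies below 0, those of the other 8 genes cross 0, and that of Gpnmb is the widest (-0.35 to 1.99).

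The 7 resident genes tended to be high or low in the same libraries, to differing degrees. In WT 3 all 7 were above their mean over the 8 libraries, and in WT 1 there were 6, while WT 2 had 1 and WT 4 had 2. Of the Mettl3 KO libraries, replicates 1 and 4 had 3 genes above the mean, replicate 2 had 1 and replicate 3 had 0. Summed over the 7 genes, WT 1 to 4 had 1508, 1093, 1512 and 1201 normalized counts and Mettl3 KO 1 to 4 had 1353, 1164, 1124 and 1171. The 2 highest sums were WT libraries, and the lowest was a WT library too. Taking each genotype around its own mean, all 21 pairs of the 7 genes had a positive Pearson r over the 8 libraries, with a median of 0.45, from 0.02 for Folr2 and Cbr2 to 0.92 for Mrc1 and F13a1. Without that centring 20 of the 21 were positive, with a median of 0.50 and the lowest at -0.05 for Folr2 and Cbr2. These values share library and depth and are given as a description.

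Cd163 was set against the 2 most abundant resident genes within each library. Cd163 counts divided by Mrc1 counts were 0.459, 0.447, 0.428 and 0.387 in the WT libraries and 0.292, 0.375, 0.356 and 0.359 in the Mettl3 KO libraries, which did not overlap. Cd163 divided by F13a1 was 0.408 to 0.542 in WT and 0.349 to 0.464 in Mettl3 KO, which overlapped. The ratio of F13a1 to Mrc1 also overlapped, at 0.815 to 1.049 and 0.767 to 0.837. These ratios were computed after the Cd163 values were known and were not tested.

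**Figure D3:**
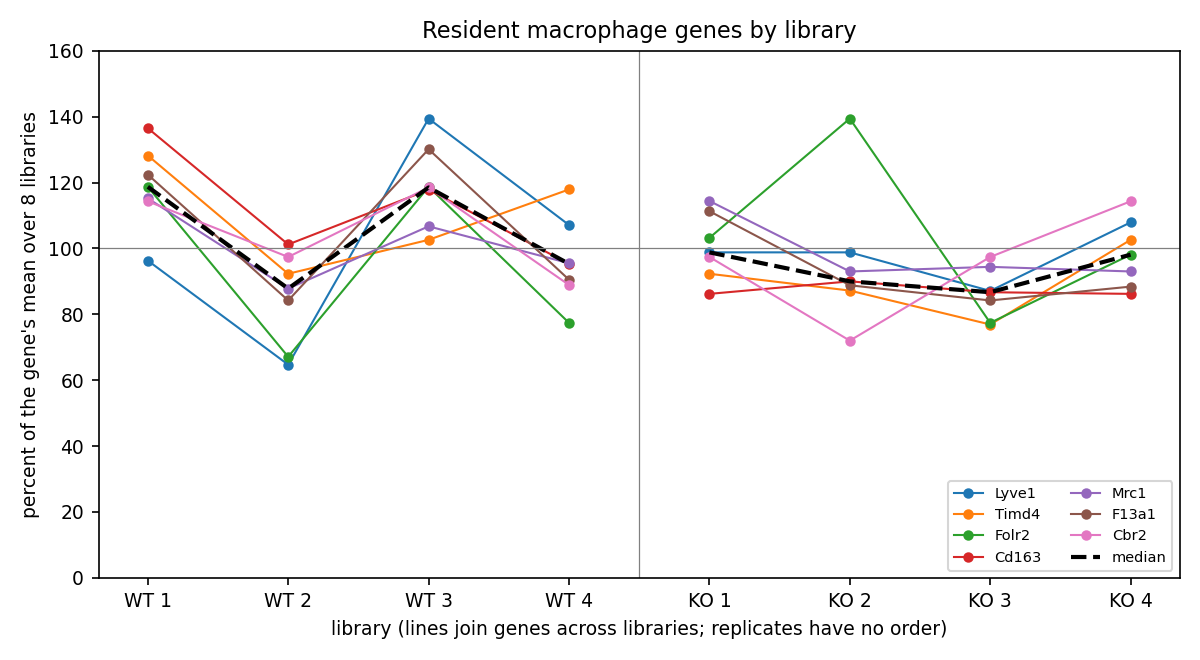
Level of each of the 7 resident genes in each library as a percentage of its own mean over the 8 libraries (vertical axis), with a coloured line per gene to guide the eye and the median dashed. The median was 118.7 and 118.5 percent in WT 1 and WT 3 and between 86.7 and 98.8 percent in the 6 other libraries.

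The counts of 12021 genes with a mean of at least 20 were set against the sum of the 7 resident genes over the 8 libraries. Those that followed it most closely were Lad1 (Pearson r 0.984), Rhpn2 (0.965), Rab10 (0.964), C330011M18Rik (0.961) and Syngr1 (0.957). Lad1, Rhpn2 and Rab10 are not known as macrophage markers, and Syngr1 is among the lipid-associated macrophage genes listed here. Among pan-macrophage genes, r was highest for Csf1r (0.92), the receptor for the growth factor CSF1, and for Laptm5 (0.86), and lowest for Itgam (-0.27) and C1qb (-0.47). With 8 libraries and so many genes, high values arise by choice of the highest.

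Of 21 pan-macrophage genes tested, 0 passed the limma test at an adjusted p under 0.05 and 2 had an unadjusted p under 0.05. The median log2 fold change was 0.044, and the summed counts were 1477 to 1799 in WT and 1593 to 1837 in Mettl3 KO. Adgre1, which encodes F4/80, had 89, 88, 98 and 71 normalized counts in the WT libraries and 95, 88, 74 and 81 in the Mettl3 KO libraries (-0.030, adjusted p = 0.931). Cx3cr1, the fractalkine receptor, had 112, 83, 83 and 91 in the WT libraries and 88, 57, 72 and 66 in the Mettl3 KO libraries (-0.39, adjusted p = 0.0743). It did not pass the test, with a mean at 76.7% of WT and a 95% interval of 0.635 to 0.923 times the WT level. Lyz2, the lysozyme of myeloid cells, had 270, 261, 282 and 217 in the WT libraries and 307, 290, 282 and 275 in the Mettl3 KO libraries (0.17, adjusted p = 0.189).

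Further genes of resident macrophages were listed besides the 7, and 18 of 20 were tested. None was called lower and 2 were called higher, Colec12, a scavenger receptor also of endothelium and fibroblasts (log2 fold change 0.52, limma adjusted p = 1.61e-06), and Igf1, an insulin-like growth factor also made by fibroblasts (0.30, adjusted p = 0.0109). The Igf1 call was lost without WT 2 (0.27, adjusted p = 0.0516) or WT 4 (0.26, adjusted p = 0.0534). Of the 18, 6 had an unadjusted limma p under 0.05, and the list's median was 0.034. Besides the 2 called, these were Hpgds (-0.355) and Ednrb (-0.225), both lower, and Fcrls (0.415) and Gas6 (0.145), both higher. Their adjusted p ran from 0.126 to 0.206. Fibroblast genes rose alongside Colec12 and Igf1, with 7 of 8 called higher, a median of 0.40, and summed counts of 2805 to 3252 in WT and 3832 to 4592 in Mettl3 KO. The part of fibroblasts in these values was not tested.

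Plac8, Trem2 and Gpnmb had the lowest levels per length of the 10 genes in both genotypes. Plac8 encodes a small cysteine-rich protein of monocytes and other cells. It (chr5:100701591-100720111, minus strand) had 2, 1, 2 and 3 normalized counts in the WT libraries and 1, 1, 0 and 2 in the Mettl3 KO libraries, 8 and 4 reads in all. No library exceeded 3 reads, so a difference was not detectable at this depth and no fold is given.

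Trem2 encodes a receptor for lipids and lipoproteins that signals through the adaptor TYROBP. It (chr17:48653429-48661175, plus strand) had 6, 5, 7 and 4 normalized counts in the WT libraries and 8, 8, 8 and 9 in the Mettl3 KO libraries. Every Mettl3 KO library was above every WT library, by as little as 1 count between WT 3 and the 3 lowest Mettl3 KO libraries. The log2 fold change was 0.53, with a 95% interval of -0.13 to 1.18 (limma adjusted p = 0.376). In recovered reads it was 22 over the WT libraries, or 1.87 CPM (exact Poisson 95% interval 1.17 to 2.83, counting error only), and 33 over the Mettl3 KO libraries, or 2.91 CPM (2.01 to 4.09). The intervals overlapped, and the test was passed in none of the 18 alternatives that gave a value, whose log2 fold changes ran from 0.34 to 0.64.

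Genes that work with TREM2 included called ones. Of 10 tested, 4 were called higher and 0 lower, with 4 at an unadjusted p under 0.05 and a median of 0.21. These were Apoe, a lipoprotein ligand of TREM2 (log2 fold change 0.33, limma adjusted p = 0.00262), Clu, a lipoprotein ligand (0.17, adjusted p = 0.0483), Syk, the kinase recruited by TYROBP (0.25, adjusted p = 0.0219), and Plcg2, a phospholipase downstream of it (0.40, adjusted p = 0.00769). Tyrobp itself had 14, 14, 20 and 8 normalized counts in the WT libraries and 18, 18, 14 and 8 in the Mettl3 KO libraries, and overlapped (0.049, adjusted p = 0.957). The Apoe call was lost with WT 2 and Mettl3 KO 4 both left out (0.31, adjusted p = 0.0691). All 4 called genes are expressed by other cells of the heart too. The Clu call was lost in 15 of 19 alternatives, among them libraries scaled to the same total (0.16, adjusted p = 0.052) or upper quartile (0.15, adjusted p = 0.0674) and any 1 library left out (adjusted p from 0.0519 to 0.137). The Syk call was lost without 6 of the 8 libraries (adjusted p from 0.0612 to 0.0833), WT 1, 2 and 4 and Mettl3 KO 2, 3 and 4.

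Monocyte genes were called higher in part. Of 15 listed genes 11 were tested, of which 3 were called higher and 0 lower, with 4 at an unadjusted p under 0.05 and a median of 0.16. Ccr2, the receptor by which monocytes follow CCL2, had 71, 91, 95 and 85 normalized counts in the WT libraries and 137, 124, 105 and 113 in the Mettl3 KO libraries. Every Mettl3 KO value was above every WT value, and the log2 fold change was 0.48 (limma adjusted p = 0.00639), with calls in 18 of 19 alternatives and not with WT 2 and Mettl3 KO 4 both left out (0.54, adjusted p = 0.052). Cd209a, a lectin of monocyte-derived and dendritic cells, had 1, 3, 2 and 1 in the WT libraries and 7, 10, 9 and 6 in the Mettl3 KO libraries. It was called (adjusted p = 0.00581), but the WT values were at or under about 3 reads, and the fitted difference moved between 0.945 and 2.065 with the setting. Thbs1, which encodes thrombospondin 1 and is expressed by many cell types, had a log2 fold change of 0.81 (adjusted p = 1.7e-06).

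The other tested monocyte genes were not called. Among them Vcan, which encodes versican, had 413, 440, 404 and 465 in the WT libraries and 455, 433, 520 and 526 in the Mettl3 KO libraries (0.16, adjusted p = 0.137). Of other blood cells, 0 of 12 tested genes of lymphocytes and NK cells and 0 of 5 of neutrophils were called by limma, with 1 and 0 at an unadjusted p under 0.05, and their summed counts did not exceed 53 and 33 in any library. Of 7 dendritic cell genes, Cd209a was called higher and Zbtb46, which endothelium also expresses, lower (-0.26, adjusted p = 0.0373), a call lost without WT 1, 2 or 3 or Mettl3 KO 2, 3 or 4 (-0.29 to -0.21, adjusted p from 0.0501 to 0.126).

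Growth factors and chemokines for macrophages were mostly low. Of 8 tested genes, 1 was called lower and 0 higher, with 2 at an unadjusted p under 0.05 and a median of -0.037. Csf1, the growth factor on which macrophages depend, had 343, 311, 348 and 281 normalized counts in the WT libraries and 310, 230, 258 and 246 in the Mettl3 KO libraries. Mettl3 KO 1 lay inside the WT range and the other Mettl3 KO libraries below it (log2 fold change -0.30, limma adjusted p = 0.0268). That call was lost without WT 1, 2 or 3 or Mettl3 KO 2, 3 or 4, with values of -0.31 to -0.24 and adjusted p from 0.0592 to 0.129. Ccl2, the ligand of CCR2, had 7, 13, 5 and 13 in the WT libraries and 18, 13, 8 and 6 in the Mettl3 KO libraries, and overlapped (0.21, adjusted p = 0.82).

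**Figure D4:**
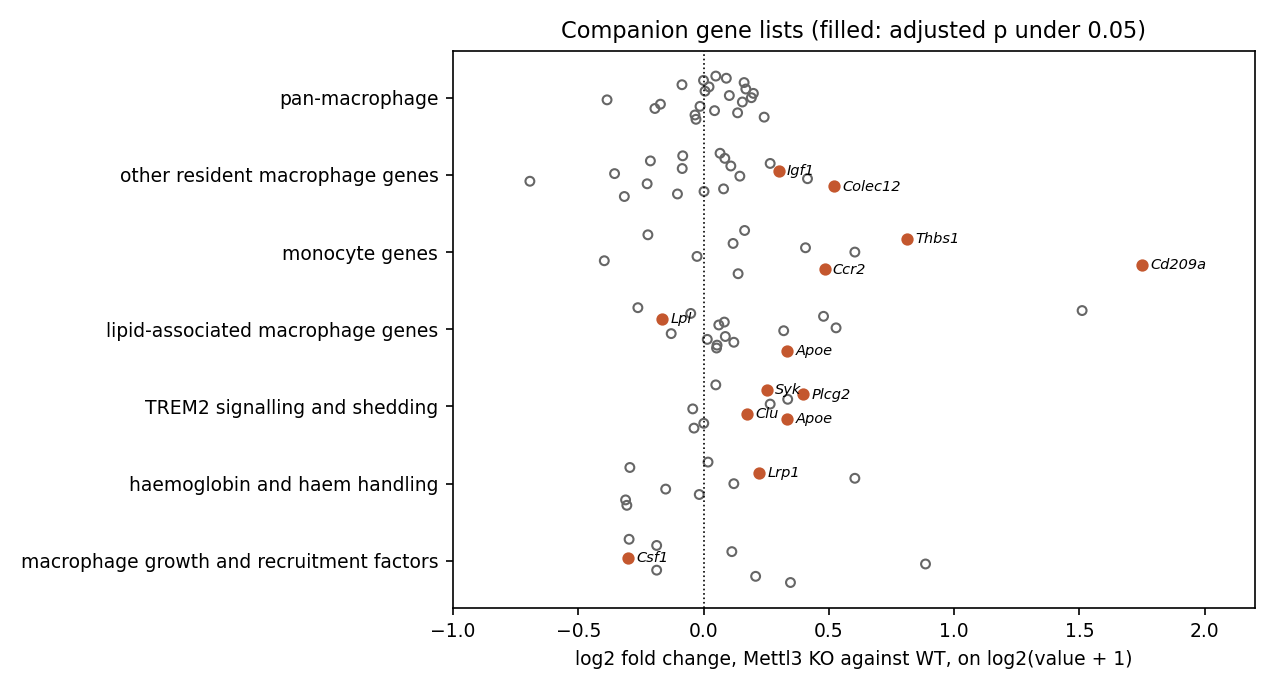
Log2 fold change of Mettl3 KO against WT on log2(normalized count + 1) (horizontal axis) of each tested gene in 7 lists of macrophage and monocyte genes, 1 point per gene, filled and named where the adjusted p was under 0.05. Filled points stand at both sides of 0, with Cd209a farthest out, and the pan-macrophage list has none.

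Gpnmb encodes a transmembrane glycoprotein of macrophages rich in lysosomes. It (chr6:49013480-49047863, plus strand) had 8, 35, 10 and 3 normalized counts in the WT libraries and 14, 7, 13 and 81 in the Mettl3 KO libraries. A single library of each genotype was high, WT 2 and Mettl3 KO 4, and the other 6 lay between 3 and 14. The mean was 14 ± 14.3 in WT and 28.8 ± 35.0 in Mettl3 KO (SD, n = 4 each). The fitted log2 fold change was 0.82, with a 95% interval of -0.35 to 1.99 (limma adjusted p = 0.468), and over the 19 alternatives it ran from 0.12 to 1.39, none past the test.

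Of 16 genes of lipid-associated macrophages, 3 were highest in the same library of each genotype as Gpnmb, and they were picked out after their values were seen. Spp1, which encodes osteopontin, had 8, 20, 8 and 1 normalized counts in the WT libraries and 14, 11, 15 and 77 in the Mettl3 KO libraries. Mmp12, the macrophage elastase, had 7, 30, 12 and 10 in the WT libraries and 17, 10, 14 and 44 in the Mettl3 KO libraries. WT 2 was the highest WT library and Mettl3 KO 4 the highest of all for both, as for Gpnmb. Lgals3, which encodes galectin 3, had 11, 13, 11 and 6 in the WT libraries and 14, 16, 9 and 23 in the Mettl3 KO libraries, with the same libraries highest of each genotype.

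Among 13794 genes with a mean of at least 10, Spp1 had the highest Pearson r with Gpnmb over the 8 libraries (0.94, and 0.87 without Mettl3 KO 4), and Mmp12 the fourth highest (0.92, and 0.84). For Lgals3 it was 0.77, and 0.54 without Mettl3 KO 4. The other 13 genes of the list did not follow Gpnmb as closely, with r from -0.76 (Lpl) to 0.31 (Cd9). This comparison was chosen after the values were seen, and the points share library and depth. Of the 21 pan-macrophage genes, 4 were highest among WT libraries in WT 2 and 2 highest among Mettl3 KO libraries in Mettl3 KO 4, and 0 were both. Cd68, a lysosomal protein of macrophages, had 28, 27, 21 and 19 normalized counts in the WT libraries and 24, 24, 24 and 21 in the Mettl3 KO libraries. Its r with Gpnmb was 0.16 over the 8 libraries and 0.64 without Mettl3 KO 4. Of the 18 further resident genes in the table, 1 was highest in both, Vsig4, a complement receptor, with 4, 6, 5 and 5 in the WT libraries and 3, 6, 2 and 17 in the Mettl3 KO libraries. The 7 resident genes summed to 1093 in WT 2 and 1171 in Mettl3 KO 4. Mettl3 KO 4 also had the highest counts of the atrial genes Bmp10 (358), Myl7 (119) and Sln (64), which were at 0, 21 and 6 in WT 2. The part of atrial tissue in the Gpnmb, Spp1 and Mmp12 values was not tested.

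**Figure D5:**
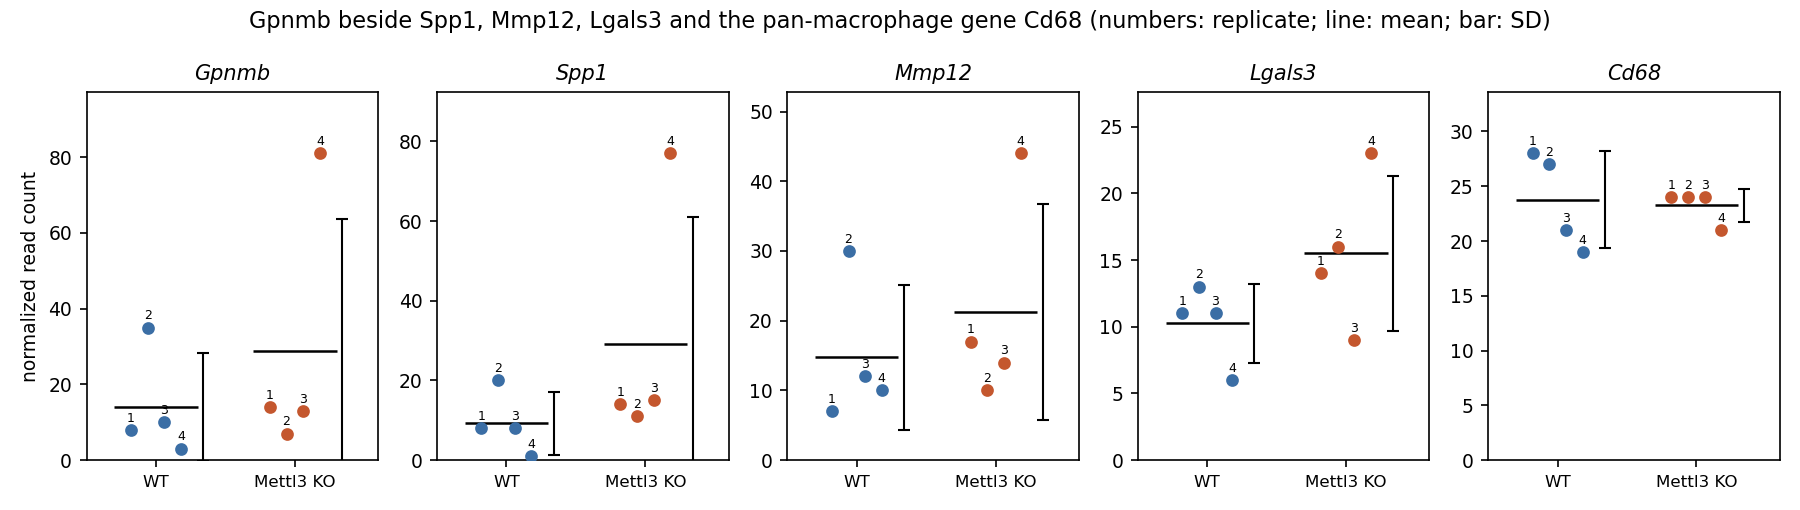
Normalized read counts (vertical axes, each from 0) of Gpnmb, Spp1, Mmp12, Lgals3 and Cd68 in WT (blue) and Mettl3 KO (orange) hearts, with 1 point per library numbered by replicate, the mean as a line and the SD as a bar that is clipped at 0. Mettl3 KO 4 is highest for Gpnmb (81), Spp1 (77), Mmp12 (44) and Lgals3 (23), and not for Cd68 (21).

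Of the 16 lipid-associated genes as a list, all were tested, 1 was called higher and 1 lower, with 5 at an unadjusted p under 0.05 and a median of 0.072. Apoe, given above, was the one called higher. Lpl, lipoprotein lipase, which cardiomyocytes express strongly, was the one called lower (log2 fold change -0.17, limma adjusted p = 0.016), a call lost without WT 1 or 4 or Mettl3 KO 2 or 4 (-0.17 to -0.12, adjusted p from 0.0524 to 0.073). Spp1 had the largest difference of the list and did not pass the test (1.51, adjusted p = 0.104).

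Genes of other heart cells were checked in the same libraries. Of 8 genes of blood endothelium 1 was called higher and 3 lower, of 8 cardiomyocyte genes 1 lower, of 5 mast cell genes 1 lower, of 6 proliferation genes 1 lower, and of 5 erythroid genes 0, with 2 at an unadjusted p under 0.05 and a median of -0.33. The mast cell gene called lower was Kit (-0.40, limma adjusted p = 0.0417), whereas Cpa3, a mast cell protease, had 6, 4, 2 and 3 counts in the WT libraries and 7, 11, 12 and 7 in the Mettl3 KO libraries (1.14, adjusted p = 0.0551). The list had 0 to 2 calls over the alternatives. Calls lost with single libraries left out were Kit (without WT 2 or 4 or any Mettl3 KO library, adjusted p from 0.06 to 0.178), Cdk1 of the proliferation list (without WT 2 or 4 or Mettl3 KO 2 or 3, adjusted p from 0.051 to 0.0954), Cdh5 of blood endothelium (without WT 2 or Mettl3 KO 3, adjusted p = 0.0598 and 0.0626) and Myl7 of the atrial list (without Mettl3 KO 2, 3 or 4, adjusted p from 0.0893 to 0.117). The proliferation list had 3 calls without WT 3. Of 5 atrial genes 4 were called higher by limma, and 1 in its robust fit. The atrial growth factor Bmp10 had 0 counts in all 4 WT libraries and in Mettl3 KO 1, and 195, 158 and 358 in Mettl3 KO 2 to 4. Atrial tissue in a library and an effect of genotype on these genes cannot be told apart. Cd163 had 161 counts in Mettl3 KO 1 and 161 to 168 in the 3 libraries with Bmp10, all below the WT range. Whether the other cells' share of the tissue has a part in the values of the 10 genes was not tested.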

How the data were processed

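The authors sequenced stranded libraries (72 bp single-end, 1 µg input) from total RNA of 8 hearts. Per the labels and methods, the authors trimmed reads (Trimmomatic 0.39), aligned them to mm39 (STAR 2.7.11a, Ensembl annotation), removed duplicates (Picard 3.1.1), counted reads per gene (featureCounts 2.0.4) and normalized with DESeq2 1.36.0. The deposited values are a score, normalized counts rounded to whole numbers and not raw counts, so limma replaced the count test planned. Removing duplicates of single-end reads lowers short, abundant transcripts, and rounding coarsens values of a few counts.

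Log2(value + 1) of the 20313 genes whose values averaged 1 or more was modelled on genotype alone, using limma 3.58.1 (R 4.3.3) with its trend option. P-values were two-sided and adjusted by Benjamini-Hochberg over all tested genes. A fold change on this scale understates the change of low genes. Samples were grouped and numbered by their labels. Reads per library were recovered from the spacing of low values (factors 0.927 to 1.11), an estimate tested on simulated data. The limma step was tested likewise. Levels per kilobase used principal transcripts of an earlier annotation, matched by gene identifier.

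The 10 genes and the lists (pan-macrophage, other resident, monocyte, lipid-associated, TREM2 signalling, haem handling, growth factors, lymphatic and blood endothelium, platelets, lymphocytes, neutrophils, dendritic and mast cells, fibroblasts, ventricular and atrial cardiomyocytes, erythroid cells, proliferation) were chosen with earlier results of these data known. Named genes were the 10, list genes called by limma, and defining or closely related list genes. Also named were the other tested haem handling genes and the further resident genes with an unadjusted p under 0.05. Genes near Gpnmb were named after their values were seen. For the monocyte list, 1 gene is not reported here and does not enter its counts. Alternatives were other scalings, limma-voom, pseudocounts, filters on low values, a robust fit, the replicate number as a block, each library left out, and, added after seeing the data, WT 2 and Mettl3 KO 4 left out together.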

Additional observations from a re-analysis of the deposited data

Results flagged for a closer look

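In groups of 4 libraries, a value was marked where its gap to the nearest other, divided by the group's range, exceeded the 95% critical value of Dixon's test. Chance marks about 1 in 20 groups where values are continuous, normally distributed and independent between groups. These values are rounded counts, and the groups share libraries and include the summed resident genes, so that rate is not a measure for them. Of 22 groups searched 5 were marked, all of them Mettl3 KO. For Gpnmb the quotient was 0.905, with Mettl3 KO 4 at 81 normalized counts and the others at 7 to 14. For Mrc1 it was 0.932 and for F13a1 0.83, with Mettl3 KO 1 high for both, at 551 against 448 to 455 and at 461 against 349 to 368. For Cd163 it was 0.857, with Mettl3 KO 2 at 168 and the others at 161 or 162. For Trem2 it was 1, with Mettl3 KO 4 at 9 and the others at 8, a gap of 1 count. The causes were not tested.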

How the results depend on the processing

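Of the 10 genes, 1 was called in every setting with all 8 libraries, other scalings included. The number called was 0 to 1 with 1 library left out, at 0 without WT 1, WT 3, Mettl3 KO 3 or Mettl3 KO 4, and 0 with both libraries high in Gpnmb left out, when Cd163 was at -0.39 (adjusted p = 0.0895). That setting also ended 18 of the 35 calls among the list genes, Apoe (adjusted p = 0.0691), Ccr2 (0.052) and Mmrn1 (0.141) among them. Genes called over the whole table numbered 1607, 1019 to 1596 with 1 library left out (lowest without Mettl3 KO 3) and 639 with both left out, where fewer libraries were fitted. The split by direction moved with the scaling. It was 958 higher and 649 lower in the main fit, 890 and 715 with the same total per library, and 822 and 786 with the same upper quartile. With 1 library left out the sign turned, with no call, for Lyve1 (-0.204 to 0.162, above 0 without WT 3, WT 4 or Mettl3 KO 3), Folr2 (-0.010 to 0.263, below 0 without WT 2 or Mettl3 KO 2) and Mrc1 (-0.108 to 0.029, above 0 without WT 1). The replicate number as a block gave 1346 calls and 1 of the 10 genes, and ended the calls of Clu (0.17, adjusted p = 0.0785) and Pdpn (0.56, adjusted p = 0.0557) and of no other list gene. In the pan-macrophage list 1 gene was called with that block and 1 without Mettl3 KO 1. Libraries of 1 number did not deviate together in every pair (r of 0.052, 0.042, -0.041 and 0.088 for replicates 1 to 4), and for replicates 2 and 3 of WT another number fitted best. With a mean of at least 10 required, Plac8, Trem2 and Cd209a gave no value. Depth limits Plac8, Trem2, Timd4, Folr2 and Cbr2, and for Gpnmb the spread between libraries does.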
